A study of Mus musculus with 6 samples.

Results

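The genes described here encode the machinery that releases neurotransmitter from the presynaptic terminal. They are 41 genes, listed by name for the roles they are known to play, among the 52230 genes to which the deposited transcripts could be assigned. The list was drawn up with earlier results of these data known. RNA was sequenced from the hippocampi of mouse pups at postnatal day 0 in 6 libraries, 3 from Mov10 Deletion pups and 3 from WT pups, and each library pooled the hippocampi of several pups. Mov10 encodes an RNA helicase. The Mov10 Deletion pups carried a floxed Mov10 allele, in which loxP sites flank exons 6 and 7, together with a germline mutant Mov10 allele and Cre recombinase driven by Emx1. This promoter is active in the excitatory lineage of the neocortex and hippocampus, so the floxed allele can be cut in that lineage. The germline allele is mutant in every cell. With the floxed allele and Cre alone, the study found a smaller fall in hippocampal MOV10 protein than it had expected. It added the germline mutant allele to lower MOV10 further. In the study WT denotes C57BL/6, and no Cre is stated for these pups, so the presence of Cre cannot be told apart from the loss of Mov10.

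A synaptic vesicle is docked at the active zone by a protein scaffold, made ready for fusion by priming factors of the Munc13 family, and fused with the plasma membrane by SNARE proteins when a synaptotagmin binds calcium. The SNARE complex is then taken apart by the ATPase NSF and its SNAP adaptors, and the vesicle is refilled by transporters. In the newborn hippocampus most synapses are still to be formed, and many of these genes rise in expression as neurons mature.

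All 41 genes passed the filter on low counts, with at least 261 estimated reads in every library. The libraries held 71400300 to 86207971 estimated reads, and their correlation over all tested genes was 0.991 to 0.996 within a genotype and 0.987 to 0.991 between genotypes. Mov10 itself was measured at 2.45, 2.13 and 2.09 CPM in the Mov10 Deletion libraries and 4.81, 4.75 and 4.80 CPM in the WT libraries, where CPM is the read count scaled to library size and composition. It was lower in all 3 Deletion libraries (log2 fold change -1.11, SE 0.10, adjusted p = 0.00132), in the direction of the labels. Markers of pan-neuronal identity summed to 5711 to 6071 TPM, the level scaled for transcript length, in the Deletion libraries and 5547 to 5859 TPM in the WT libraries, with 1 of 11 higher and 1 lower. The 10 markers of hippocampal excitatory neurons were all detected, with 1 higher and 2 lower. They summed to 1864 to 1907 TPM in Deletion and 1969.6 to 2026 TPM in WT, so every Deletion sum was below every WT sum. Among all genes tested, 12.2% were higher and 11.7% lower by the rule given below.

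Most of the release genes that passed the test were higher in Mov10 Deletion, led by Unc13c, Syn3 and Pclo. Of the 41, 18 were higher in Mov10 Deletion at an adjusted p under 0.05, 1 was lower and 22 did not pass the test. Among all 16745 genes tested, 12.2% were higher and 11.7% were lower by the same rule. The median log2 fold change of the 41 genes was 0.14, against 0.0052 for all tested genes, and the 18 rises ran from 0.14 to 1.39. In 19 of the 41 all 3 Deletion libraries lay above all 3 WT libraries, and in 2 all lay below, where 20.4% and 21.2% of all genes did so. The 41 genes were proposed with results of these data already known, so these counts describe the genes and are not an independent test of them.

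The fold changes were estimated with 2 factors of unwanted variation in the model. Without the factors 19 of the 41 were higher and 1 lower, where 11.0% and 9.96% of all genes were, and 17 of the 18 remained among the higher. The library Mov10 Deletion 2 had the highest levels: the median of the 41 genes, taken as log2 CPM minus the WT mean, was 0.23 there, against 0.085 and 0.13 in Deletion 1 and Deletion 3. Without that library 21 genes were higher and 9 lower, and the median log2 fold change was 0.075. Among all genes 2863 were then higher and 3036 lower. Leaving out any other library gave 16 to 23 genes higher, with 3 lower without Deletion 1 or WT 3, 2 lower without Deletion 3 or WT 1 and 0 lower without WT 2. In these other fits 1389 to 2885 of all genes were higher and 945 to 2844 lower, with the fewest without WT 2 and the most without Deletion 1.

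**Figure D1:**
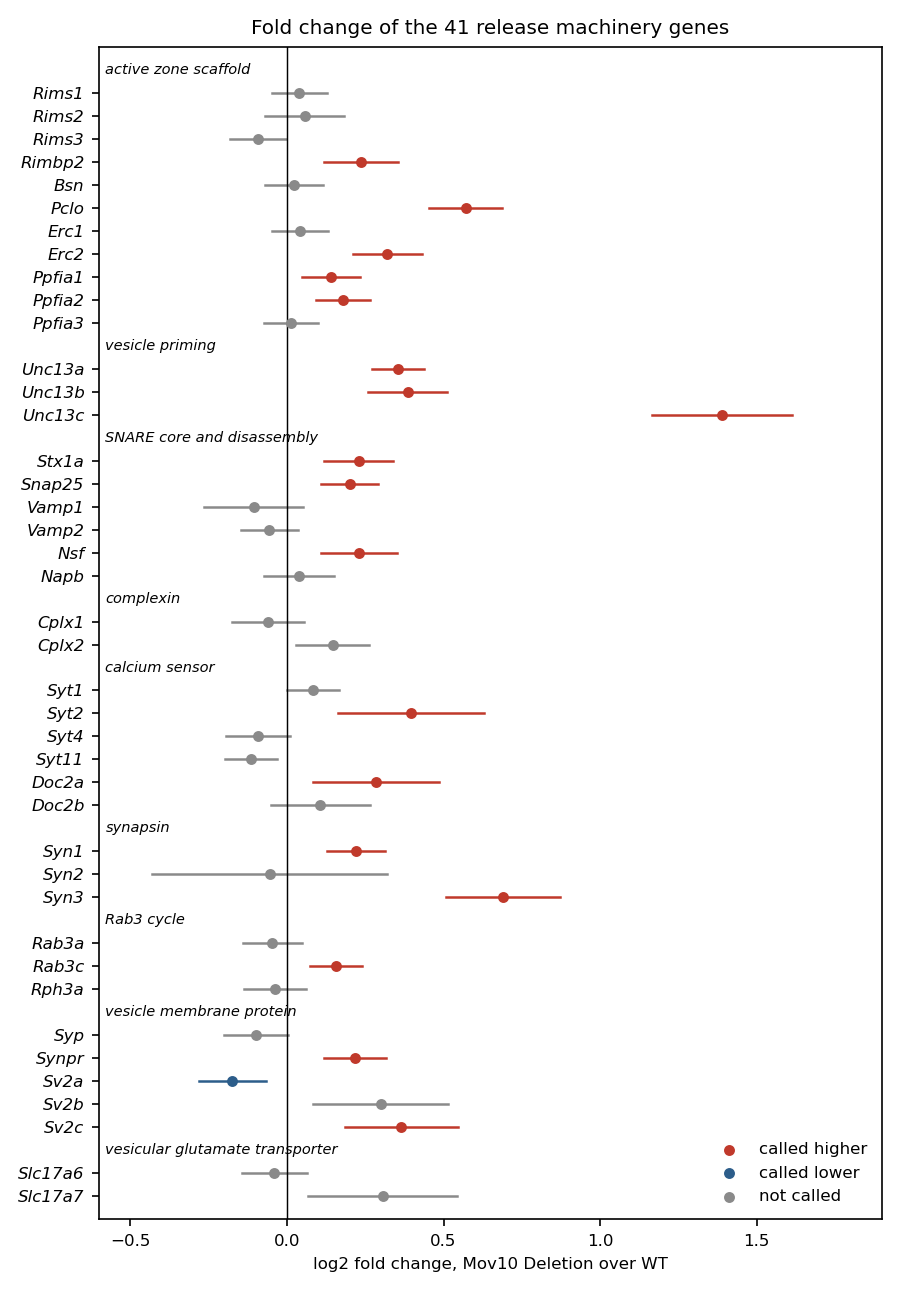
Log2 fold change of each of the 41 genes, Mov10 Deletion over WT, by role; points are estimates from the model with 2 factors and lines are 95% confidence intervals. The 18 genes called higher are red, Sv2a, called lower, is blue, and the 22 not called are grey.

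The priming role, which held only 3 Unc13 genes here, was the only one among the 9 in which every gene was higher. Unc13d, Baiap3, Cadps and the priming factor Cadps2 were counted with the other active zone genes. Of those, 5 of 12 were higher, 1 was lower and 6 were not called. The count for the priming role thus covers the 3 Unc13 genes only and not priming as a whole. Unc13a, Unc13b and Unc13c encode Munc13 proteins, which open syntaxin and let the SNARE complex assemble. Unc13c was measured at 8.42, 8.62 and 8.88 CPM in the Mov10 Deletion libraries and 3.03, 3.65 and 3.41 CPM in the WT libraries. The lowest Deletion library was thus above the highest WT library, and the change was the largest of all 41 genes (log2 fold change 1.39, SE 0.096, adjusted p = 0.00090), a 2.62-fold rise. Unc13a, the main Munc13 gene of excitatory terminals, stood at 270.3, 305 and 295 CPM in the Mov10 Deletion libraries and 231, 229 and 212 CPM in the WT libraries (log2 fold change 0.35, SE 0.035, adjusted p = 0.00166). Unc13b was at 73.7, 81.5 and 89.8 CPM in the Mov10 Deletion libraries and 63.2, 61.9 and 63.1 CPM in the WT libraries (log2 fold change 0.39, SE 0.055, adjusted p = 0.00408). The groups did not overlap for any of the 3, and all 3 passed under each of the 18 other settings tried. Per transcript length the family was carried by Unc13a and Unc13b: Unc13c reached 1.92 ± 0.0776 TPM in Deletion and 0.752 ± 0.0670 TPM in WT (SD, n = 3), while the summed level of the 3 genes was 102, 107 and 118 TPM in the Mov10 Deletion libraries and 85.5, 81.8 and 76.2 TPM in the WT libraries.

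Because the 3 priming genes moved together, the 250 bases before the start site of each are shown, from RefSeq on GRCm38.p6, 5′ to 3′ on the strand of the gene, with each CG dinucleotide in capitals. Unc13a lies at chr8:71671758-71672007 on the minus strand, Unc13b at chr4:43058703-43058952 on the plus strand and Unc13c at chr9:73969038-73969287 on the minus strand.
Unc13a: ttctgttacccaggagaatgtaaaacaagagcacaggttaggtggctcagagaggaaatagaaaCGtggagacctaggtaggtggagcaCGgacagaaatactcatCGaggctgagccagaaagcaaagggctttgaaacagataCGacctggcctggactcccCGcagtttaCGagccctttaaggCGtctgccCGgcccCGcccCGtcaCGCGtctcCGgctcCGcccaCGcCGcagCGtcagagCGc
Unc13b: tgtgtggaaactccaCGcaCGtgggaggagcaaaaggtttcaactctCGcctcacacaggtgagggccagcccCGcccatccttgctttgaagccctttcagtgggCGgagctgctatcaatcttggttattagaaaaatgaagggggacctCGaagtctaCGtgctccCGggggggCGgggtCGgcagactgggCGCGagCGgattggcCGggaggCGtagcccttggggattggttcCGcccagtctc
Unc13c: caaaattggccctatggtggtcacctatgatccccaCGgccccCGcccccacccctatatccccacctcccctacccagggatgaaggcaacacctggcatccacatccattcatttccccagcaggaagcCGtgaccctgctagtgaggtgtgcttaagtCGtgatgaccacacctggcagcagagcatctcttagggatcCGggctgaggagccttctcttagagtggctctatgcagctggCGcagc
A CG reads the same on both strands. Unc13a held 18, Unc13b 16 and Unc13c 6. A CG was present in 92.1% of the 32851 promoters in the table, which held a median of 6, and the 34 release genes with an entry held 4 to 36, with a median of 14. Where a release gene had several start sites in the table, the first listed was taken. The 32851 promoters hold all listed start sites of 27025 genes, so the medians of 14 and 6 are not like for like. Any part of the promoters in the change was not tested.

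Scaffold genes of the active zone were split, with 5 of 11 higher and 6 not called. Pclo, which encodes the giant scaffold protein Piccolo, changed most, at 226, 269.9 and 279 CPM in the Mov10 Deletion libraries and 170.2, 182 and 173 CPM in the WT libraries (log2 fold change 0.57, SE 0.050, adjusted p = 0.00130). Bsn, which encodes its paralogue Bassoon, was at 303, 352 and 365 CPM in the Mov10 Deletion libraries and 326, 337 and 381 CPM in the WT libraries, and its groups overlapped (log2 fold change 0.022, SE 0.039, adjusted p = 0.715). The sum of the pair was 71.5, 77.3 and 83.2 TPM in the Mov10 Deletion libraries and 65.9, 66.8 and 67.8 TPM in the WT libraries.

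Erc2, which encodes the scaffold protein ELKS2, was at 227, 261 and 232 CPM in the Mov10 Deletion libraries and 187, 198 and 203 CPM in the WT libraries (log2 fold change 0.32, SE 0.047, adjusted p = 0.00461), with the groups apart. Its paralogue Erc1 was at 229, 254 and 237 CPM in the Mov10 Deletion libraries and 238, 235 and 213 CPM in the WT libraries and did not pass (log2 fold change 0.041, 95% interval -0.048 to 0.13). Rimbp2, whose product tethers calcium channels to RIM proteins, was at 50.7, 56.1 and 50.0 CPM in the Mov10 Deletion libraries and 45.6, 44.6 and 38.7 CPM in the WT libraries (log2 fold change 0.24, SE 0.051, adjusted p = 0.0159). All 3 Deletion libraries were above all 3 WT libraries. The RIM genes themselves, which organise docking around Rab3 and Munc13, did not pass: log2 fold changes were 0.039 for Rims1, 0.056 for Rims2 and -0.093 for Rims3, and the summed level of the 3 was 94.7, 99.1 and 101 TPM in the Mov10 Deletion libraries and 104, 96.5 and 93.3 TPM in the WT libraries.

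The liprin-alpha genes, whose products gather active zone components in the growing terminal, differed in size. Ppfia2 was at 149, 153 and 148 CPM in the Mov10 Deletion libraries and 133, 135 and 123 CPM in the WT libraries (log2 fold change 0.18, SE 0.037, adjusted p = 0.0148), without overlap. Ppfia1 was at 71.6, 73.4 and 77.0 CPM in the Mov10 Deletion libraries and 65.7, 67.4 and 73.5 CPM in the WT libraries, where the highest WT library reached the Deletion values (log2 fold change 0.14, SE 0.039, adjusted p = 0.0383). The Ppfia1 call was held in 8 of the 18 other settings and was lost, among others, without the factors (adjusted p = 0.187), and with counts scaled for transcript length its log2 fold change was -0.042. Its level per transcript length was 49.2, 30.4 and 50.2 TPM in Deletion and 42.2, 42.6 and 48.0 TPM in WT, lowest in Deletion 2. There the transcript Ppfia1-210 was given no reads: it stood at 20.1, 0 and 18.8 TPM in Deletion and 15.3, 14.1 and 19.1 TPM in WT. The coding transcript Ppfia1-201 was at 19.6, 21.0 and 21.8 TPM in Deletion and 19.0, 18.4 and 19.9 TPM in WT. Ppfia3 did not pass (log2 fold change 0.013, 95% interval -0.074 to 0.099).

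In the fusion complex the plasma membrane SNAREs were higher and the vesicle SNAREs were not called. Stx1a encodes syntaxin 1A, the plasma membrane SNARE that Munc13 acts on, and was at 89.4, 97.9 and 87.7 CPM in the Mov10 Deletion libraries and 79.4, 78.8 and 71.2 CPM in the WT libraries (log2 fold change 0.23, SE 0.048, adjusted p = 0.0142). Snap25, its partner in the membrane, was at 181, 215 and 194 CPM in the Mov10 Deletion libraries and 174, 169.7 and 166 CPM in the WT libraries (log2 fold change 0.20, SE 0.039, adjusted p = 0.0122). In both genes the lowest Deletion library was above the highest WT library. Vamp2, the main vesicle SNARE, was the most abundant of the 41 genes in TPM, though not in CPM. It was at 346, 382 and 353 CPM in the Mov10 Deletion libraries and 373, 377 and 374 CPM in the WT libraries, with overlapping groups (log2 fold change -0.056, 95% interval -0.15 to 0.035). Vamp1 was at 11.4, 13.5 and 14.3 CPM in the Mov10 Deletion libraries and 14.3, 13.5 and 15.6 CPM in the WT libraries (log2 fold change -0.11, 95% interval -0.26 to 0.051).

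Disassembly showed the same mixture. Nsf, the ATPase that separates spent SNARE complexes, was at 151, 156 and 138 CPM in the Mov10 Deletion libraries and 129, 127 and 112 CPM in the WT libraries (log2 fold change 0.23, SE 0.053, adjusted p = 0.0198), and the groups were apart. Napb, which encodes the adaptor beta-SNAP, was at 123, 134 and 119 CPM in the Mov10 Deletion libraries and 122, 122 and 117 CPM in the WT libraries (log2 fold change 0.038, adjusted p = 0.590). The complexins, which clamp and support the assembled SNAREs, were not called. Cplx1 was at 115, 128 and 113 CPM in the Mov10 Deletion libraries and 126, 120.4 and 123 CPM in the WT libraries, with overlap. Cplx2, the more abundant, was at 714, 819 and 714 CPM in the Mov10 Deletion libraries and 683, 673 and 662 CPM in the WT libraries, so its groups were apart although the adjusted p was 0.0720 for a log2 fold change of 0.15.

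**Figure D2:**
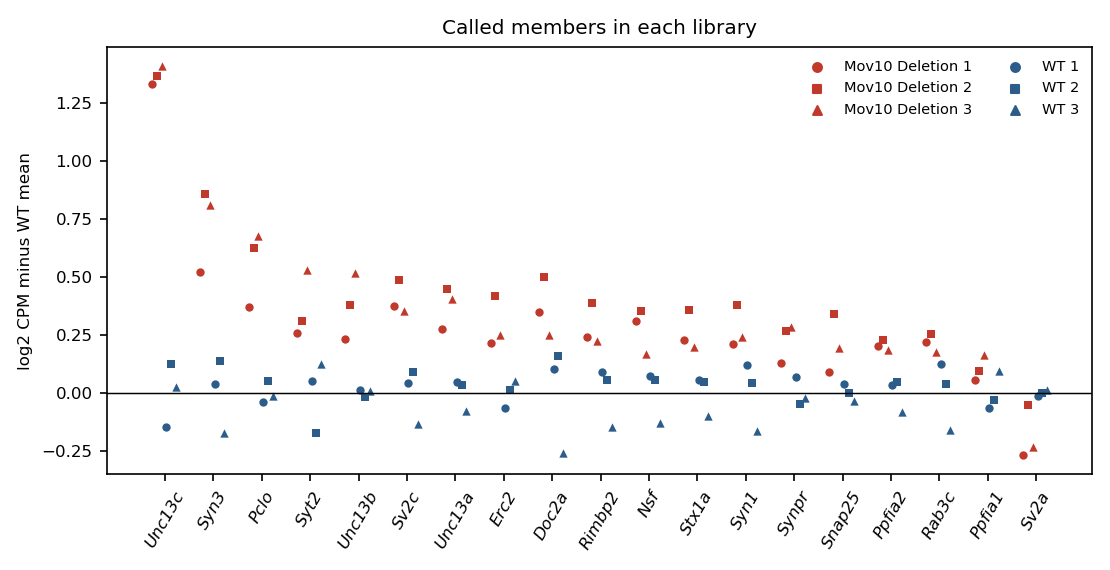
Log2 CPM minus the mean of the 3 WT libraries for each of the 19 called genes, ordered by fold change; red points are Mov10 Deletion libraries, blue points are WT libraries, and shapes mark the replicate number. Groups are apart in 18 genes and overlap in Ppfia1, and Sv2a is the 1 gene below the WT libraries.

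Among the calcium sensors and their relatives 2 of 6 were higher. Syt2 encodes the fast synaptotagmin of the hindbrain and of some interneuron terminals, and was low here, at 11.8, 12.2 and 14.2 CPM in the Mov10 Deletion libraries and 10.2, 8.72 and 10.7 CPM in the WT libraries (log2 fold change 0.40, SE 0.10, adjusted p = 0.0278). Doc2a, a high-affinity sensor of slow release, was at 18.8, 20.9 and 17.6 CPM in the Mov10 Deletion libraries and 15.9, 16.5 and 12.3 CPM in the WT libraries. The groups were apart, but the adjusted p was just within the threshold (log2 fold change 0.28, SE 0.087, adjusted p = 0.0496), and the call was lost in 5 of the 18 other settings. Syt1, the fast sensor of hippocampal terminals, was at 327, 350.0 and 329 CPM in the Mov10 Deletion libraries and 328, 312 and 283 CPM in the WT libraries, with overlap (log2 fold change 0.084, adjusted p = 0.125). Doc2b did not pass (log2 fold change 0.11, adjusted p = 0.281).

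The other 2 synaptotagmins did not pass. Syt11, which binds no calcium and acts in membrane retrieval, was at 389, 394 and 379.6 CPM in the Mov10 Deletion libraries and 416, 424 and 422 CPM in the WT libraries. All 3 Deletion libraries were below all 3 WT libraries, with an adjusted p just outside the threshold (log2 fold change -0.12, SE 0.036, adjusted p = 0.0525). Syt4, found on other secretory vesicles too, was at 324, 385 and 340.0 CPM in the Mov10 Deletion libraries and 379.5, 365 and 371 CPM in the WT libraries, where Deletion 2 lay above the WT libraries (adjusted p = 0.167).

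Of the synapsins, which tether vesicles in the reserve pool, 2 of 3 were higher. Syn3, the isoform linked to the developing neuron, was at 15.5, 19.6 and 18.9 CPM in the Mov10 Deletion libraries and 11.1, 11.9 and 9.59 CPM in the WT libraries (log2 fold change 0.69, SE 0.079, adjusted p = 0.00220), the second largest change of the 41. Syn1 was at 174, 195 and 177 CPM in the Mov10 Deletion libraries and 163, 155 and 134 CPM in the WT libraries (log2 fold change 0.22, SE 0.040, adjusted p = 0.00926), also without overlap. Syn2 was at 45.5, 77.5 and 44.1 CPM in the Mov10 Deletion libraries and 56.7, 58.4 and 48.3 CPM in the WT libraries. Deletion 2 was the highest of the 6 libraries and the other 2 Deletion libraries were the lowest, so the estimate was the least precise of the members (log2 fold change -0.055, SE 0.16, adjusted p = 0.829, 95% interval -0.43 to 0.32). Without Deletion 2 its log2 fold change was -0.34, and Syn2 was then called lower. The transcript Syn2-202 varied most, at 493, 2432 and 0 estimated reads in Deletion and 740, 917 and 146 in WT. The main transcript Syn2-201 held 3067, 3286 and 2882 estimated reads in Deletion and 3921, 3300 and 3334 in WT.

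In the Rab3 cycle, in which a small GTPase carries vesicles to the active zone, Rab3c was at 206, 211 and 199.9 CPM in the Mov10 Deletion libraries and 193, 182 and 158 CPM in the WT libraries (log2 fold change 0.16, SE 0.036, adjusted p = 0.0194), with the groups apart. The call on Rab3c was lost in 5 of the 18 other settings. Rab3a, the main isoform, was at 199, 219 and 200.0 CPM in the Mov10 Deletion libraries and 213, 211 and 218 CPM in the WT libraries (log2 fold change -0.047, 95% interval -0.14 to 0.049). Its effector Rph3a, which encodes rabphilin, ranged from 88.4 to 105 CPM in Deletion and from 92.0 to 107 CPM in WT, with overlap (adjusted p = 0.550).

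Genes of the vesicle membrane moved in both directions. The 3 SV2 glycoproteins are paralogues that ride on the same vesicles and bind synaptotagmin. Sv2a, the widespread form, was at 167, 194 and 171 CPM in the Mov10 Deletion libraries and 199.6, 201 and 203 CPM in the WT libraries. All 3 Deletion libraries were below the WT libraries, the only called fall among the 41 (log2 fold change -0.17, SE 0.046, adjusted p = 0.0319), although the call was lost in 4 of the 18 other settings. Sv2c, the rarest form, was at 9.41, 10.1 and 9.26 CPM in the Mov10 Deletion libraries and 7.48, 7.71 and 6.62 CPM in the WT libraries (log2 fold change 0.36, SE 0.078, adjusted p = 0.0155). Sv2b was at 58.4, 65.9 and 51.5 CPM in the Mov10 Deletion libraries and 46.9, 50.1 and 41.3 CPM in the WT libraries, so its groups too were apart, but it missed the threshold (log2 fold change 0.30, SE 0.093, adjusted p = 0.0517), and it was called higher in 14 of the 18 other settings. Summed over the family the level was 107, 119.6 and 107 TPM in the Mov10 Deletion libraries and 117, 116 and 110.2 TPM in the WT libraries, so that the groups overlapped for SV2 as a whole.

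Synpr, which encodes synaptoporin, a protein of mossy fibre terminals, was at 56.2, 61.8 and 62.6 CPM in the Mov10 Deletion libraries and 53.9, 49.8 and 50.6 CPM in the WT libraries (log2 fold change 0.22, SE 0.043, adjusted p = 0.0120), without overlap. Syp encodes its relative synaptophysin, a major membrane protein of the vesicle and a common marker of synapse number. It was at 296, 315 and 288 CPM in the Mov10 Deletion libraries and 319, 326 and 312 CPM in the WT libraries and did not pass (log2 fold change -0.099, 95% interval -0.20 to 0.0019).

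The vesicular glutamate transporters fill the vesicle and mark excitatory terminals. Slc17a7, or VGLUT1, was at 170.1, 180.0 and 137 CPM in the Mov10 Deletion libraries and 129.7, 137 and 109.6 CPM in the WT libraries. Deletion 3 lay within the WT range, and the gene missed the threshold (log2 fold change 0.31, SE 0.10, adjusted p = 0.0657), while without the factors its adjusted p was 0.0359. Slc17a6, or VGLUT2, was at 55.9, 52.0 and 53.7 CPM in the Mov10 Deletion libraries and 56.9, 53.0 and 55.3 CPM in the WT libraries, with overlap (log2 fold change -0.040, 95% interval -0.14 to 0.064).

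Levels of the 41 genes spanned from 0.752 TPM for Unc13c to 426 TPM for Vamp2 in WT. After Vamp2 came Rab3a at 354 ± 7.16 TPM, Syt4 at 259.8 ± 8.61 TPM, Syp at 247 ± 11.6 TPM and Snap25 at 242 ± 9.33 TPM (SD, n = 3). The last 3 were not apart over the WT libraries. Of the 40 pairs of neighbours in this order, 16 were apart over the WT libraries and 24 overlapped. At the low end stood Syn3 at 8.48 ± 1.23 TPM, Syt2 at 3.50 ± 0.274 TPM, Sv2c at 1.79 ± 0.178 TPM and Unc13c at 0.752 ± 0.0670 TPM.

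By level, all 4 genes under 10 TPM in WT were called higher, as were 13 of the 28 genes from 10 to 100 TPM and 1 of the 9 above 100 TPM, which was Snap25. This split was made after the values were seen and was not tested. The share of all genes called at each level was not computed, so these counts describe the 41 genes only. Summed over all 41 genes the level was 3628, 3889 and 3698 TPM in Deletion and 3705, 3608 and 3413 TPM in WT, and these ranges overlapped.

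**Figure D3:**
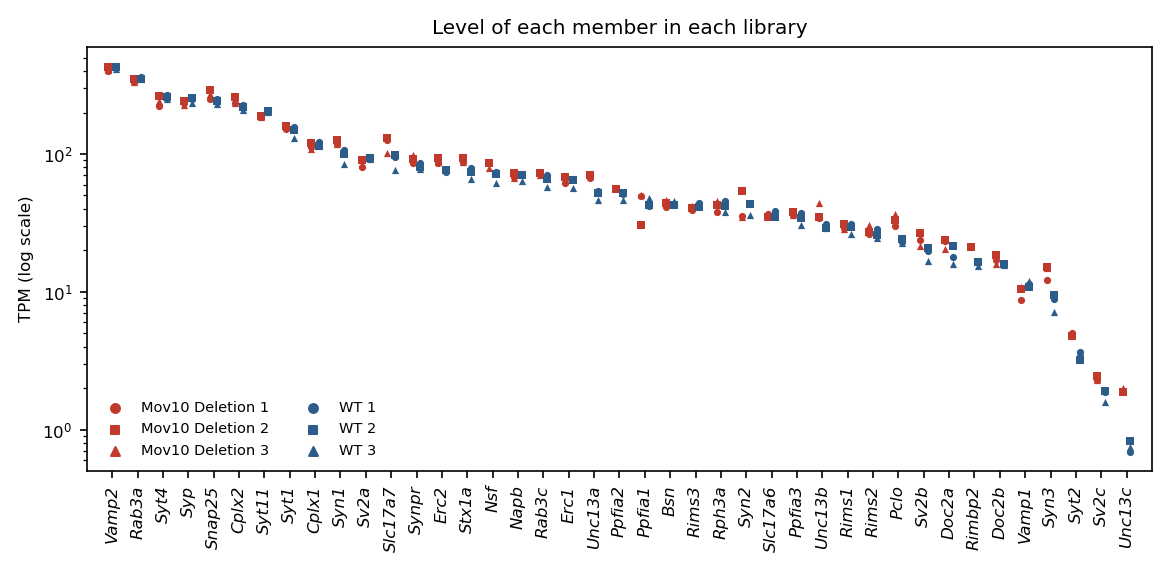
TPM of each of the 41 genes in each library on a log axis, ordered by the WT mean; red points are Mov10 Deletion libraries and blue points are WT libraries. The groups lie close together at the high end, from Vamp2 at 426 TPM in WT, and are farthest apart at Unc13c.

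Transcript usage, the share of each transcript within its gene, could be tested for the 35 genes with at least 2 transcripts past the filter. Usage differed in 3 of them, Rab3a, Vamp2 and Vamp1, and in 5.38% of the 10338 genes tested. The count is close to that share and is not a result about the release genes, so the values below describe the 3 genes only. None of these 3 genes was called for its total level. In Vamp1 the transcript Vamp1-203 held 61.0, 45.3 and 56.8% of the gene's TPM in the Deletion libraries and 37.8, 35.7 and 36.8% in the WT libraries, without overlap. Vamp1-201 held 23.5, 39.9 and 28.4% and 47.4, 47.2 and 42.1%, so the order of the pair was turned in all 3 Deletion libraries (adjusted p = 0.0421 for the gene).

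The transcripts differ in the last codons of the protein, the end that sits in the vesicle membrane, and these ends are shown because it is there that the coding sequences part. On GRCm39, in the GENCODE annotation, Vamp1 lies at chr6:125192340-125222927 on the plus strand. The last coding bases that both transcripts share are chr6:125196549-125196600. Vamp1-201 then splices to an exon that starts at 125197013, while Vamp1-203 reads on into what is an intron of Vamp1-201 and stops at 125196614. Each line gives the coding end from 125196549 up to and including the stop codon, 5′ to 3′, with the bases that are not shared in capitals.
Vamp1-201: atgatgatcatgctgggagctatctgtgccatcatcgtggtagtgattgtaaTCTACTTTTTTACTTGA
Vamp1-203: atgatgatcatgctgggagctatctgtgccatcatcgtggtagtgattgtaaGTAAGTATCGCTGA
The first has 17 bases of its own and the second 14, in coding sequences of 357 and 354 bases with the stop codon.

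**Figure D4:**
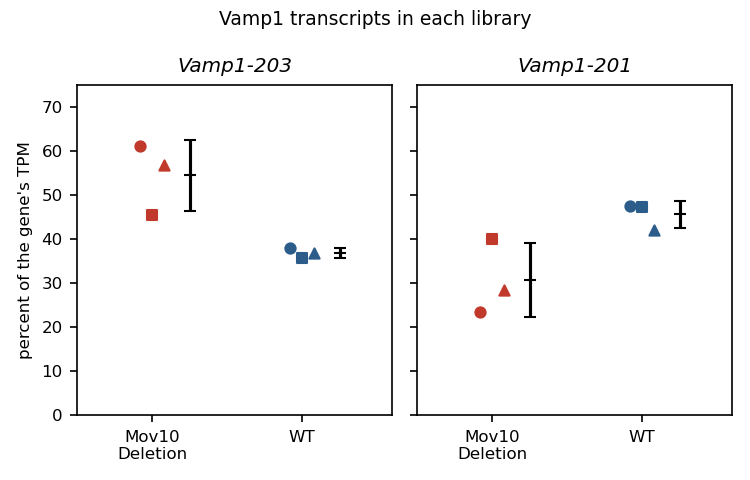
Percent of Vamp1 TPM held by the transcripts Vamp1-203 and Vamp1-201 in each library; red points are Mov10 Deletion, blue points are WT, and the bars beside them are mean ± SD of 3 libraries. Vamp1-203 lies at 45.3 to 61.0% in Deletion and 35.7 to 37.8% in WT.

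The other differences in usage were small. In Rab3a the leading transcripts Rab3a-201 and Rab3a-204 held 68.6, 66.4 and 67.6% and 24.8, 26.2 and 25.1% in Deletion against 66.6, 65.6 and 64.9% and 23.6, 24.8 and 25.4% in WT (adjusted p = 0.0278 for the gene). The limma p-values of these 2 transcripts, unadjusted, were 0.158 and 0.0904. The minor transcript Rab3a-206, named after its values were seen, held 3.01, 3.08 and 3.54% in Deletion and 5.40, 4.91 and 4.27% in WT, without overlap. In Vamp2 the leading transcript Vamp2-201 held 95.9, 96.6 and 96.4% in Deletion and 96.8, 97.3 and 96.9% in WT, and Vamp2-202 held 2.45, 1.15 and 1.57% and 0.976, 0.906 and 0.739% (adjusted p = 0.0336). Without the factors Rab3a passed (adjusted p = 0.00681) and Vamp1 and Vamp2 did not (adjusted p = 0.0645 and 0.0732), whereas Syt1 did (adjusted p = 0.00920). Leaving out 1 library left 0 to 6 genes called, with 0 without WT 2 and 6 without WT 3. Rab3a and Vamp2 passed in none of these 6 fits and Vamp1 passed in 2, without Deletion 2 and without WT 3, and the other calls fell on other genes. The uncertainty of dividing reads between transcripts was not part of the test.

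Beyond the 41 genes, 62 further presynaptic genes on 5 lists were tested, of which 13 were higher, 7 lower and 42 not called, with a median log2 fold change of 0.047. These are 21.0% higher and 11.3% lower, against 12.2% and 11.7% of all genes, so the share of lower genes is near the background. Other active zone genes had 5 of 12 higher and 1 lower. The other vesicle protein genes had 3 of 16 higher and 4 lower, the other SNARE and SM protein genes 1 of 12 each way, the other calcium sensors 2 of 12 higher and 0 lower, and the vesicle recycling genes 2 of 10 higher and 1 lower. The count of higher genes was 21 without Deletion 1 and 8 without WT 2, and that of lower genes 13 without Deletion 2 and 3 without WT 2.

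The largest rise among them was in Slc18a2, or VMAT2, which loads monoamines into vesicles, at 12.2, 13.0 and 10.4 CPM in the Mov10 Deletion libraries and 6.26, 6.20 and 5.14 CPM in the WT libraries (log2 fold change 0.95, SE 0.098, adjusted p = 0.00179). Ppfia4, the remaining liprin-alpha gene, was at 70.3, 77.9 and 79.0 CPM in the Mov10 Deletion libraries and 54.5, 54.1 and 50.5 CPM in the WT libraries (log2 fold change 0.50, SE 0.041, adjusted p = 0.00130). Cadps2, a priming factor of dense-core vesicles, had a log2 fold change of 0.40 (SE 0.071, adjusted p = 0.00888). Tspoap1, which encodes RIM-BP1, the paralogue of the Rimbp2 product, had a log2 fold change of 0.36 (SE 0.041, adjusted p = 0.00218). In all 4 genes the groups were apart.

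The largest falls were in Svop, an SV2-related vesicle protein (log2 fold change -0.26, SE 0.036, adjusted p = 0.00403), Snap29, a SNARE of intracellular membranes (log2 fold change -0.25, SE 0.039, adjusted p = 0.00601), Git1, a scaffold at synapses (log2 fold change -0.18, SE 0.036, adjusted p = 0.0120), and Dnajc5, the chaperone CSP-alpha of the vesicle (log2 fold change -0.17, SE 0.040, adjusted p = 0.0234). Svop was at 82.0, 91.2 and 86.5 CPM in the Mov10 Deletion libraries and 102, 103 and 110.0 CPM in the WT libraries, and in all 4 every Deletion library was below every WT library.

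Some markers of other cells were called too, where 12.2% of all genes tested were higher and 11.7% lower. A single call in a list of 8, or 12.5%, is near that share and is not a result about the cell type. In a bulk tissue, fewer cells of a type and less RNA per cell cannot be told apart. Of 8 progenitor markers 4 were lower (Pax6, Vim, Mki67 and Top2a) and Hes5 was higher, of which Top2a and Hes5 passed without the factors too, and the list summed to 602 to 691 TPM in Deletion and 641 to 681 TPM in WT. Of 8 astrocyte markers 2 were higher, Aqp4 (log2 fold change 1.14, SE 0.15, adjusted p = 0.00316) and Gfap (log2 fold change 0.64, SE 0.092, adjusted p = 0.00431), and the list summed to 789 to 865 TPM in Deletion and 658 to 779 TPM in WT, without overlap. Among 8 markers of inhibitory interneurons Dlx1 was lower and Sst higher (Sst not without the factors, adjusted p = 0.097), among 8 of Cajal-Retzius cells Calb2 was higher, and among 4 tested thalamic markers none was called.

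Among 4 endothelial markers Cldn5 was lower, and among 6 microglia markers none was called. Of 5 choroid plexus markers Ttr was called lower with the factors and not without them (adjusted p = 0.0123 and 0.619), at 45.6, 0.786 and 3.75 CPM in the Mov10 Deletion libraries and 13.4, 11.6 and 5.10 CPM in the WT libraries, where the groups overlapped and Deletion 1 was the highest library, and the list summed to 3.27 to 112 TPM in Deletion and 14.2 to 35.5 TPM in WT. The part of these cell types in the levels of the release genes was not tested.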

How the data were processed

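RNA was taken from pooled hippocampi of at least 2 pups per library and sequenced from TruSeq Stranded mRNA libraries. The authors quantified transcripts on GRCm39 with Salmon 1.4.0, and the deposited values are estimated counts and TPM per transcript. Of 139225 transcripts, 137570 matched GENCODE vM39, and their counts were summed to 52230 genes. Unmatched transcripts held 0.589 to 0.600% of counts. Genes with at least 0.25 CPM in 3 libraries (16745) were kept and normalised by TMM (edgeR 4.0.16). Log2 CPM (prior count 2) was fitted with limma 3.58.1 (R 4.3.3), with a mean-variance trend and 2 RUVs factors estimated on all tested genes with genotypes as replicate sets, leaving 2 residual degrees of freedom. P-values were adjusted by Benjamini-Hochberg over all genes at 0.05, two-sided. Transcript usage was tested by diffSplice in limma with the same factors. The code was tested on simulated data.

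The sources do not say which libraries share a litter, so the p-values treat the 6 samples as independent. They measure the spread that is left between these samples after the 2 factors, which were estimated from the same libraries. Intervals cover the spread in the fit, and depth was 71400300 to 86207971 estimated counts. The 41 genes, the other lists and the tests were chosen with earlier results of these data known. All members are described by role; those called with groups apart are given in every library. Of the further presynaptic genes, the 4 highest and 4 lowest called are named, and for transcript usage the called genes with their 2 most abundant transcripts. Alternatives were edgeR's quasi-likelihood test and DESeq2 1.42.0 on rounded counts, other factors, filters, prior counts and scalings, counts scaled for transcript length, a block for the replicate number, and leaving out each library. Vamp7, Cplx3 and Cplx4, and the markers Gbx2 and Shox2, were not tested. The result of 1 further marker list is not reported here.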

Additional observations from a re-analysis of the deposited data

How the results depend on the processing

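Each count was recomputed under 12 other settings of the fit and with each of the 6 libraries left out. Over the 18 alternatives, 12 of the 18 genes called higher were called in each, and 17 kept a positive log2 fold change in each. The exception was Ppfia1, at -0.042 with counts scaled for transcript length. The number of release genes called higher ran from 13 (length-scaled counts) to 19 over the other settings of the fit. The number called lower was 0 with edgeR without factors, upper-quartile normalisation or length-scaled counts, and 2 with DESeq2 or a prior count of 0.5. Among all genes the reported model called 2038 higher and 1954 lower. Length-scaled counts gave 1476 and 1409, upper-quartile normalisation 2238 and 1435, and edgeR without factors 1827 and 1653. DESeq2 gave 1985 and 2031, and a prior count of 0.5 gave 2177 and 2117. Of the further presynaptic genes, 4 were lower under upper-quartile normalisation. With a library left out, release genes ran from 16 to 23 higher and 0 to 9 lower, further presynaptic genes from 8 to 21 higher and 3 to 13 lower, and genes called for usage from 0 to 6. The median log2 fold change of the release genes then ran from 0.075 to 0.16. These fits keep 1 residual degree of freedom. The cause of these shifts was not tested.

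Signs turned in 24 of the estimates, none of them called. Values are log2 fold changes, with that of the reported model first. Rims1 was at 0.039, and at -0.0067 to 0.11 with a library left out. Rims2 was at 0.056, and at -0.0050 to 0.13 with a library left out. Bsn was at 0.022, and at -0.035 without factors, -0.013 with 1 factor, -0.035 with the replicate block, -0.033 by edgeR without factors, -0.035 by DESeq2, -0.035 without a filter and -0.059 to 0.091 with a library left out. Erc1 was at 0.041, and at -0.0047 to 0.097 with a library left out. Ppfia3 was at 0.013, and at -0.035 to 0.094 with a library left out. Napb was at 0.038, and at -0.017 to 0.078 with a library left out. Syn2 was at -0.055, and at 0.021 with 1 factor, 0.032 by edgeR without factors, 0.030 by DESeq2, 0.044 with a filter at 1 CPM and -0.34 to 0.11 with a library left out. Rph3a was at -0.038, and at 0.0094 with 1 factor and -0.093 to 0.062 with a library left out.

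Deviations of same-numbered libraries correlated at 0.011, -0.071 and 0.043, and Deletion 1 correlated more with WT 2 (0.10). No pairing by replicate number was seen, but with 3 libraries per genotype these correlations cannot tell whether libraries share a litter or preparation. With the replicate number as a block and no factors, 19 release genes were higher and 1 lower, 13 and 5 further presynaptic genes were, the median log2 fold change was 0.13, and usage was called in 3 genes, Erc2, Unc13b and Syt1, in place of Rab3a, Vamp1 and Vamp2 (adjusted p = 0.0506, 0.0789 and 0.133).

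The 3 libraries of each genotype limit what can be called: adjusted p-values of Syt11, Sv2b, Cplx2 and Slc17a7 lay between 0.0517 and 0.0720, so a missed call among them does not show that they were unchanged.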
